A study of Mus musculus with 13 samples.

Results

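Of the 73169 origins kept in control mouse embryonic stem (ES) cells, 5485 (7.5%) were isolated, with the nearest other kept origin more than 50 kb away on both sides. Origins were merged from the short nascent strand sequencing (SNS-seq) peaks of the 3 control replicates wherever peaks overlapped by at least 1 bp, which gave 161001 regions, and a region was kept when at least 2 of the 3 control lists held a peak in it. Distances were taken from centre to centre, so the isolated origins were chosen by the measured positions of the control peaks and by how many control lists held them. The 15 isolated origins at a chromosome end had a neighbour on 1 side only. The 67684 other kept origins served as the comparison. The rule used the control peaks, so the distances and the control support of the isolated origins are a description with no test, while the PhenDC3 peaks, the sequence, the annotation and the RNA were not used to choose them.

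The cells were CGR8, a mouse ES cell line, grown for 48 h with 0.5% DMSO (control, Ctrl) or with 10 μM PhenDC3 in the same amount of DMSO. SNS-seq was done in 3 control and 2 PhenDC3 replicates, and the authors called the peaks of each replicate against 1 RNase-treated library of the same condition. RNA-seq was done in 3 replicates of each condition. Peaks per list on the nuclear chromosomes ranged from 79377 to 120882 in the controls and were 144103 and 102400 with PhenDC3. The lists hold no read counts, so their depth is unknown, and the lists of unequal length set the share of origins that a list can hold.

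DNA replication starts at many origins along each chromosome, from which 2 forks move apart, and a stretch of DNA without an origin must be copied by forks that come from outside it. SNS-seq maps origins through the short RNA-primed strands made at initiation, which λ exonuclease spares because of their RNA primer. Many mammalian origins lie next to a G-quadruplex (G4), a stacked structure that guanine-rich single strands can form, and PhenDC3 is a small molecule that binds and stabilises G4. Large regions with few origins and few genes include the bodies of very long neuronal genes, some of which are common fragile sites.

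The sequences below come from the mm10 (GRCm38) assembly and are given 5′ to 3′. They are shown as examples of isolated origins with and without a predicted G4 nearby and of a repeated sequence found at many of them. The first pair lies at isolated origins with a peak in all 5 lists, on the G-rich strand, and capitals mark the stretch covered by G4Hunter windows of 25 bases with a score of at least 2.
chr19:13055084-13055233, + strand: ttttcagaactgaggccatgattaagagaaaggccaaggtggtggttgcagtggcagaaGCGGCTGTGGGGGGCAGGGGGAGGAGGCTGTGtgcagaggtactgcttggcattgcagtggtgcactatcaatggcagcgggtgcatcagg
chr13:47593617-47593766, + strand: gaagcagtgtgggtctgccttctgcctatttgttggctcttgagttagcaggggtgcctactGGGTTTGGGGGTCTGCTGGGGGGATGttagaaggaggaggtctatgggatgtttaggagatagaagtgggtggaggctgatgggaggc
The capitals span 32 bases in the first and 26 bases in the second, and their middle lies 434 and 180 bp 3′ of the origin centre. The next pair of isolated origins had no G4 within 500 bp although both were among the strongest in all 5 lists, and 150 bases around the summit of the strongest control peak are shown.
chr15:65406435-65406584, + strand: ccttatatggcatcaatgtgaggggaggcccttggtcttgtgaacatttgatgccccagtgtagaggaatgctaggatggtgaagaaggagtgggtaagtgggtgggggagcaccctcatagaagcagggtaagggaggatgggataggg
chr15:7367237-7367386, + strand: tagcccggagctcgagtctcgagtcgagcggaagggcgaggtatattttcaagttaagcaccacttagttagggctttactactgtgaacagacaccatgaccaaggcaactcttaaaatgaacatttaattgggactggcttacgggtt
The last 3 sequences belong to the repeat described further on as family A, 1 unit of 208 bases from an isolated origin on the X chromosome and 150 bases at the summits of the 2 most isolated origins of the genome, both on the Y chromosome. The start of the chr15:7367237-7367386 sequence above resembles a stretch of this unit, but that origin was not placed in family A.
chrX:95291449-95291656, + strand: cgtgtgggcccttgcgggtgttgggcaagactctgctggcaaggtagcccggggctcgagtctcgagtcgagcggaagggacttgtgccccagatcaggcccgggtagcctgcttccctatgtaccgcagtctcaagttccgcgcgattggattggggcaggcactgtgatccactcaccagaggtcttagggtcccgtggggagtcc
chrY:84661395-84661544, + strand: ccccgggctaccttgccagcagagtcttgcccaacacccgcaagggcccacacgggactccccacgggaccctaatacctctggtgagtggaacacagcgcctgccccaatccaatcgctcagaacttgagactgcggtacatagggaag
chrY:54588426-54588575, + strand: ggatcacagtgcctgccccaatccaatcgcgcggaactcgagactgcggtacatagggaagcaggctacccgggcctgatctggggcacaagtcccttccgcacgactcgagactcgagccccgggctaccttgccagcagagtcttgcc

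The median distance from an isolated origin to its nearest kept neighbour was 78.8 kb, against 4424 bp over all kept origins. For 1807 isolated origins the nearest neighbour was more than 100 kb away and for 394 more than 200 kb. The members nearest to the threshold had distances of 50001, 50006 and 50018 bp, and the origins just outside it 49996, 49993 and 49991 bp. Those just inside lay in an intron of Sim1, a neuronal transcription factor gene, between genes on the X chromosome, and in a Zmat4 intron. For the one on X, the nearest transcription start was that of Dmd, 416.8 kb away. The first, chr10:50942580-50943331, had fold enrichments over the RNase-treated library of 5.86, 6.17 and 3.51 in the controls and 3.71 and 4.70 with PhenDC3. The second, chrX:82531877-82532178, had 7.86, 7.71 and 6.69 in the controls, 5.99 in PhenDC3 replicate 1 and no peak in replicate 2. The third, chr8:23869856-23870068, had 6.23, 7.06 and 14.5, no peak in PhenDC3 replicate 1 and 4.95 in replicate 2. The 3 just outside lay in introns of Pde7b, Gm1123 and 5730522E02Rik, and the pattern over the lists was as mixed among them, 1 having peaks in both PhenDC3 lists and the other 2 in replicate 2 only.

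Of the isolated origins, 2998 had a peak in all 3 control lists and 2487 in 2 of them. Control replicates 1, 2 and 3 held 4800, 4491 and 4677 of them. Their median fold enrichment was 6.65, 5.73 and 6.97 in the 3 control lists, against 5.96, 5.16 and 5.99 for the other kept origins. By median fold enrichment they were thus not fainter than the other kept origins. Both sets had to be in at least 2 control lists, so this is a description, and other peaks of the lists were not compared. Their median width was 353 bp, against 345 bp.

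With PhenDC3, 2748 of the 5485 isolated origins (50.1%, 95% Wilson interval 48.8 to 51.4) had a peak in both lists, where 45.5% of all kept origins did. At least 1 PhenDC3 list held 83.0% of them, against 74.4% of all kept origins, and 935 isolated origins (17.0%) had no peak in either list, against 25.6% of all kept origins. Compared with the other kept origins, the share in both lists was higher by 4.94 percentage points (95% Newcombe interval 3.57 to 6.32). The direction turned with the processing. The difference was -4.15 points (-5.52 to -2.78) when a PhenDC3 peak within 1 kb of the centre sufficed. A window of 1 kb can also take in the peak of a neighbour. Of the kept origins, 28221, all outside the isolated set, had a neighbour within 2 kb, so this setting favoured the other kept origins. With equally many of the strongest peaks from each of the 5 lists, control and PhenDC3, the difference was -1.29 points (-2.52 to -0.0413). These intervals, and those that follow, cover counting error over sites only, and sites are not replicates.

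The 2 PhenDC3 replicates differed in this respect. Replicate 1 held 3172 isolated origins (57.8%, 56.5 to 59.1), beside 58.7% of all kept origins, and the difference from the other kept origins was -0.919 points (-2.28 to 0.434). Replicate 2 held 4126 (75.2%, 74.1 to 76.3), beside 61.2% of all kept origins, a difference of 15.1 points (13.9 to 16.3). The higher share in both lists therefore rested on replicate 2.

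The difference also changed direction with control support. Among origins with peaks in only 2 control lists, 35.8% of the isolated and 27.9% of the other kept origins were in both PhenDC3 lists, a difference of 7.88 points (5.96 to 9.85). Among origins with peaks in all 3 control lists the shares were 62.0% and 63.9%, a difference of -1.91 points (-3.74 to -0.114). Replicate 2 held more of the isolated origins in both classes, 59.9% against 40.4% and 87.9% against 81.5%. Replicate 1 held 47.3% against 46.8% in the first class and 66.5% against 71.7% in the second.

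Over the 16 patterns of presence that the 5 lists allow, the largest group of isolated origins had a peak in every list (1858, 33.9%, against 30.6% of the other kept origins). The second held 778 isolated origins (14.2%, against 8.43%) with a peak in all 3 controls and in PhenDC3 replicate 2 but not in replicate 1. The mirror pattern, all 3 controls and replicate 1 only, held 137 (2.50%, against 3.74%). Another 225 (4.10%, against 5.15%) were in all 3 controls and in neither PhenDC3 list.

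The share in PhenDC3 replicate 2 rose with every step in distance to the nearest kept origin, from 50.1% of origins with a neighbour within 2 kb to 64.7%, 68.9%, 71.1%, 74.0% and, beyond 100 kb, 77.6%. In replicate 1 the same steps gave 54.5%, 63.1%, 60.8%, 60.2%, 57.8% and 57.9%. Isolated origins thus exceeded crowded ones with a neighbour within 2 kb in both replicates, by 25.2 points (23.9 to 26.4) in replicate 2 and 3.36 points (1.93 to 4.79) in replicate 1. Against origins with a neighbour at 2 to 10 kb they were higher in replicate 2 by 10.5 points (9.17 to 11.8) and lower in replicate 1, with a difference of -5.29 points (-6.76 to -3.82). The control lists differed by distance too. Among single-copy origins, defined further on, control replicate 3 held 63.1% with a neighbour within 2 kb and 84.9% beyond 100 kb. Control replicates 1 and 2 went from 93.1% to 86.5% and from 86.4% to 76.6%. The rule used the control peaks, so these shares are a description.

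**Figure D1:**
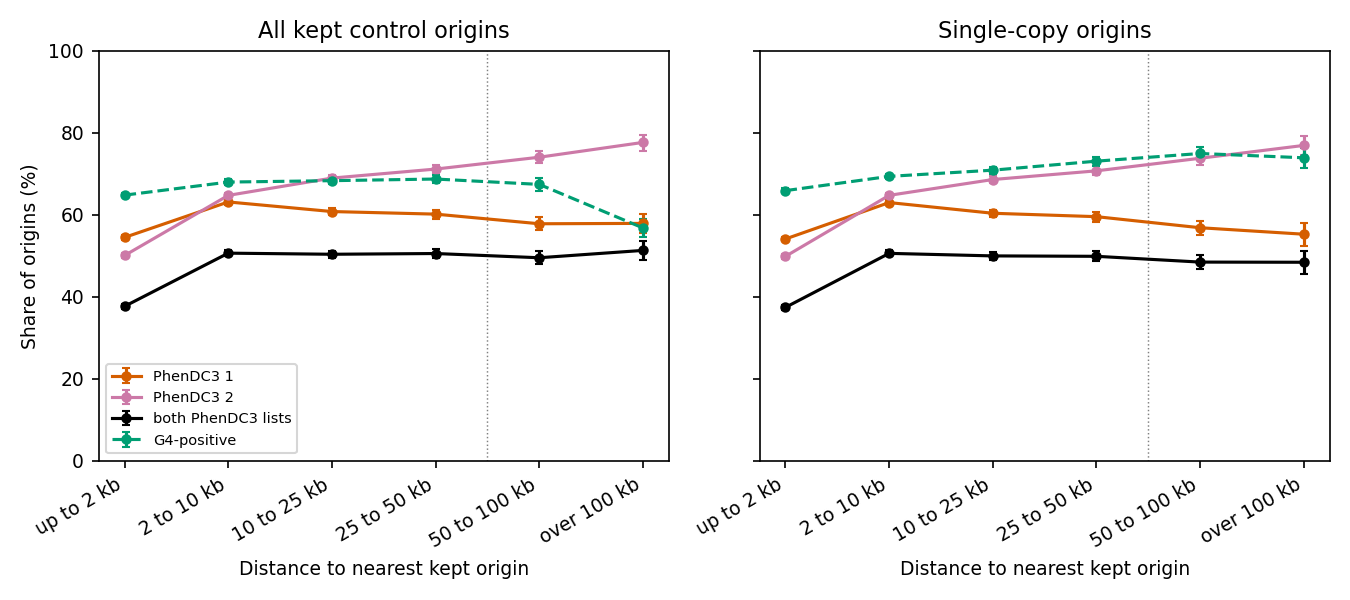
Share of kept control origins (%) with a peak in PhenDC3 replicate 1, in replicate 2, in both, or with a predicted G4, by distance to the nearest kept origin, over all kept origins (left) and single-copy ones (right). Bars are 95% Wilson intervals, and the dotted line marks 50 kb, with the isolated origins to its right. Replicate 2 rises to 77.6% beyond 100 kb on the left while replicate 1 ends at 57.9%, and the G4 share falls to 56.8% on the left but stays at 73.9% among single-copy origins.

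The strength of the peaks was compared by rank within each PhenDC3 list. By −log10 p, isolated origins with a peak stood at a median percentile of 57.6 in replicate 1, against 65.3 for the other kept origins, and at 64.3 against 65.1 in replicate 2. By fold enrichment the order was the other way round, 53.5 against 50.9 and 60.0 against 49.9. The direction of the strength difference thus depended on the measure. The median fold enrichment of isolated origins was 5.39 and 5.40 in the 2 PhenDC3 lists.

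Isolated origins lay mostly between genes and far from gene starts. They were intergenic in 57.2% (other kept origins 31.4%, the whole genome 52.0%), intronic in 36.2% (45.5%), exonic in 3.30% (9.87%) and in a promoter, the 2 kb upstream of a transcription start site (TSS), in 3.25% (13.2%). No annotated TSS lay within 50 kb of 3676 of them (67.0%), against 24.0% of the other kept origins, and the median distance to a TSS was 99967 bp against 13732 bp. Their surroundings were AT-rich, with a median GC content of 39.7% within 25 kb against 45.7%. Within 500 bp of the centre the median GC content was 45.6% against 50.2%, and repeats (lower case in the assembly) made up 39.6% against 20.6%.

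The 178 isolated origins in a promoter behaved differently from the intergenic ones. They had a peak in PhenDC3 replicate 1 in 47.8%, in replicate 2 in 44.9% and in both in 30.3% of cases, against 58.5%, 78.8% and 52.6% of the isolated intergenic origins. The difference for both lists was -22.2 points (-28.7 to -14.9). Promoter origins among the other kept origins had the same low share, 33.2% in both lists, and the difference between isolated and other promoter origins was -2.89 points (-9.24 to 4.29).

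Isolated origins made up very different parts of the origins of each chromosome. They were 2.99% of the kept origins of chromosome 11, 13.3% of those of chromosome 14, 32.9% on X (389 of 1183) and 46.1% on Y (101 of 219). Per sequenced Mb they were much more even, with 1.15 on Y, 1.38 on chromosome 11 and at most 2.58 on chromosome 16, while all kept origins ranged from 2.48 per Mb on Y and 7.24 on X to 46.2 on chromosome 11.

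Much of this DNA was repeated. For each origin the number of copies in the assembly was counted for every 31-base word within 250 bp of its summit, and an origin was called multi-copy when the median was 2 or more. This applied to 1125 isolated origins (20.5%) and to 5.57% of the other kept origins, and 7.60% of the isolated origins had a median of 1000 copies or more. The multi-copy share was 15.6% of origins 50 to 100 kb from the next and 30.5% beyond 100 kb. On X it was 53% of the isolated origins and on Y 99.0%. The sources used here do not give how reads that map to several places were placed, and at a multi-copy origin the copy in which initiation took place cannot be told apart from the others. The copy number was computed after the data had been seen, and single-copy values are therefore given beside the main ones.

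One group of related sequences, called family A here, held 784 isolated origins, which is 14.3% of the isolated origins and 69.7% of the multi-copy ones among them, against 2.17% of the other kept origins. Origins were placed in a family when they shared at least 100 words of 31 bases, directly or through a chain of others. Of the 784, 643 shared 1 identical 31-base word, and 246 showed the sequence in tandem at the summit with a median period of 208 bp, the length of the unit printed above. The median word occurred 1260 times in the genome at these origins. No repeat annotation was used, so the repeat is not named. Family A was present on all 21 chromosomes, with 528 isolated origins on autosomes, 167 on X and 89 of the 101 on Y.

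Family A origins had much control support, which is a description because the rule used the control peaks. A peak in all 3 control lists was found at 711 of the 784 (90.7%), in PhenDC3 replicate 1 at 498 (63.5%), in replicate 2 at 647 (82.5%), in both at 467 (59.6%) and in neither at 106 (13.5%). The share in both exceeded that of the single-copy isolated origins by 11.1 points (7.35 to 14.8). Of those single-copy origins only 49.1% were in all 3 control lists, so the 2 groups differed in control support. The family A share in both PhenDC3 lists was below that given above for all isolated origins with peaks in all 3 control lists. A G4 lay within 500 bp of only 41 of them (5.23%), against 74.6% of the single-copy isolated origins, although their median GC content was 53.4%. Members of the family that were not isolated (1468) were alike in G4 (5.45%) and had 57.2% in both PhenDC3 lists, a difference of 2.35 points (-1.94 to 6.58).

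**Figure D2:**
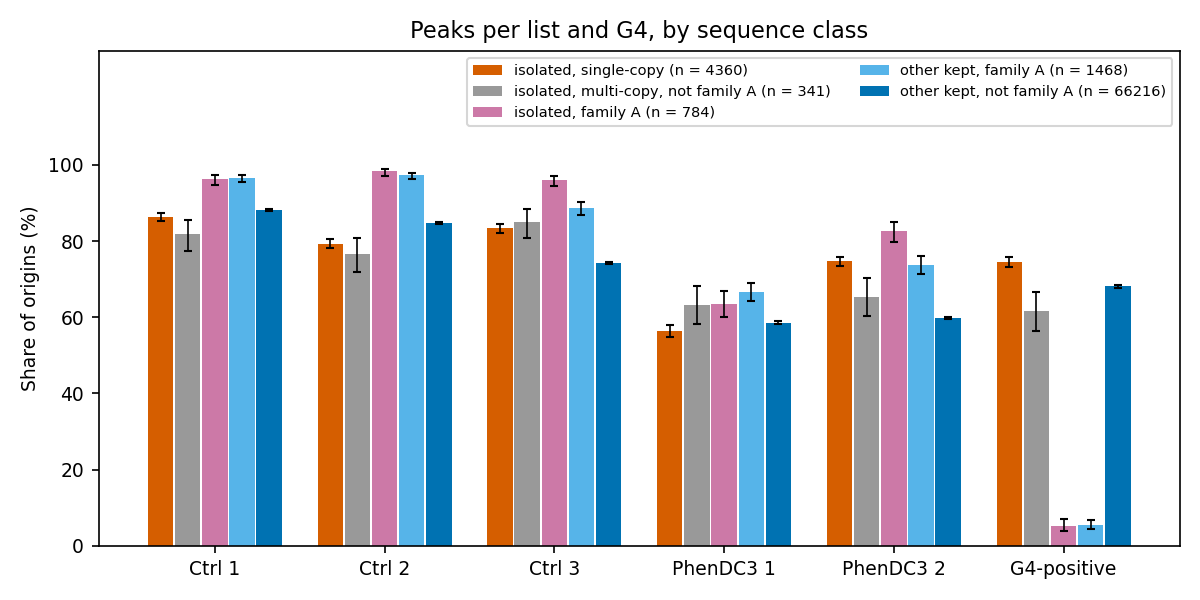
Share of origins (%, bars from 0, with 95% Wilson intervals) with a peak in each of the 5 lists or with a predicted G4, for isolated single-copy origins, isolated multi-copy origins inside and outside family A, and other kept origins inside and outside family A. The 784 isolated family A origins reach 96.3%, 98.3% and 96.0% in the controls and 63.5% and 82.5% with PhenDC3, and 5.23% have a G4 against 74.6% of the single-copy isolated origins.

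The 5 origins farthest from any other all lay on Y, had no G4 within 500 bp, and had median copy numbers from 195 to 2733. Of these, 4 belonged to family A. The most isolated, chrY:84661344-84662236, stood 3927 kb from its nearest neighbour and had fold enrichments of 7.18, 6.54 and 12.8 in the controls and 5.37 and 9.49 with PhenDC3. The second, chrY:54588227-54588981, stood 1834 kb away and had 8.84, 8.02 and 7.80 in the controls, no peak in PhenDC3 replicate 1 and 5.12 in replicate 2. Neighbours that lie in sequence missing from the assembly could not be seen at any of these origins.

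The strongest isolated origins present in all 5 lists were ranked by their lowest fold enrichment. The first, chr15:65405776-65406718, was intergenic and 381 kb from the nearest TSS, that of Efr3a, and had 25.5, 19.6 and 20.3 in the controls and 15.3 and 18.1 with PhenDC3. Both PhenDC3 values lay below all 3 control values. The second, chr19:13054440-13055010, lay 8.69 kb from the TSS of the olfactory receptor gene Olfr1454 and had 14.9, 17.2 and 15.3 in the controls and 13.5 and 20.9 with PhenDC3. Here the conditions overlapped, as they did at chr13:47593240-47593783, with 20.2, 15.8 and 19.7 against 12.3 and 23.7. An origin in an intron of Tmx4, chr2:134613123-134613736, had 20.1, 22.0 and 14.2 against 12.8 and 13.3, and one in an intron of Egflam, chr15:7366462-7367722, with a median of 8 copies, had 15.0, 13.5 and 16.5 against 15.3 and 14.3. Each condition has an RNase-treated library of its own as the denominator of the fold enrichment, so the levels were not tested between conditions.

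The isolated origins strongest in the controls and without a PhenDC3 peak had lower fold enrichments. An origin on chromosome 18, in an intron of the non-coding genes 4930474G06Rik and Gm33948, had 11.6, 9.99 and 10.7 in the controls. One on X, chrX:140509171-140509394, 33.4 kb from the TSS of Tsc22d3, a glucocorticoid-induced gene, had 13.0, 8.15 and 15.0 and a G4 within 500 bp. The other 3, on chromosomes 5, 14 and 1, all belonged to family A, with 1897, 132 and 56 copies.

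**Figure D3:**
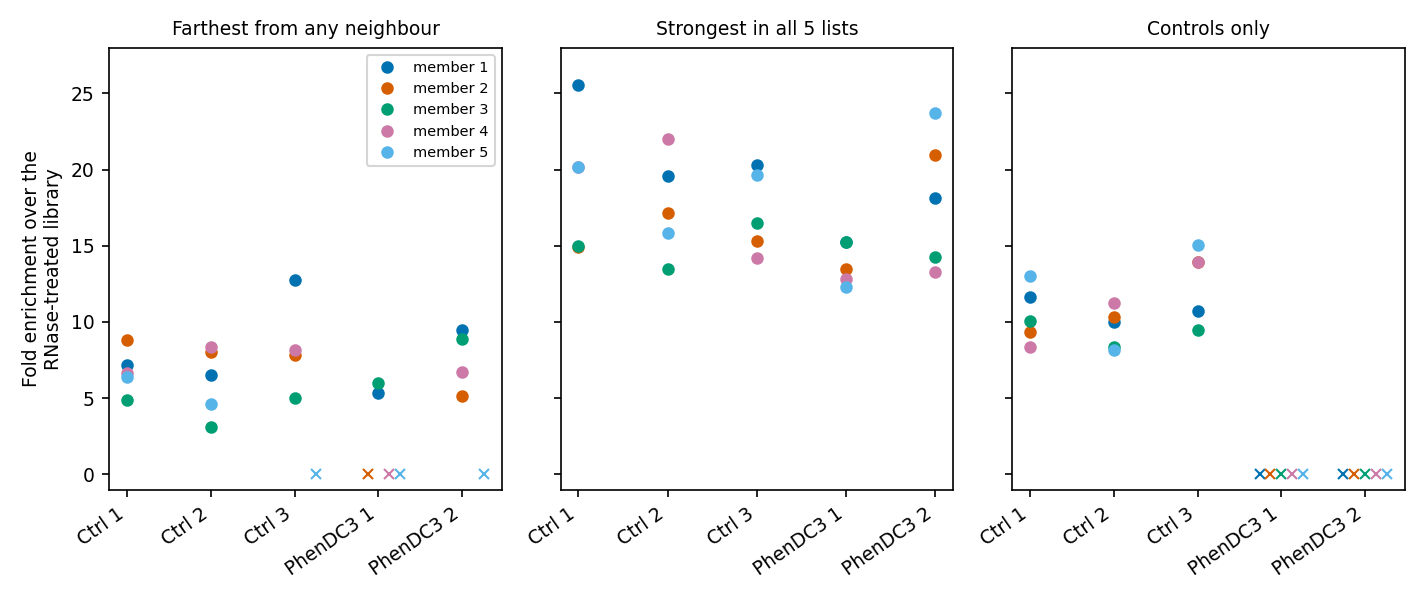
Fold enrichment over the RNase-treated library in the 5 peak lists for the 5 isolated origins farthest from a neighbour (left), the 5 strongest in all lists (middle) and the 5 strongest in the controls without a PhenDC3 peak (right), 1 colour per origin within a panel. Crosses at 0 mark lists without a peak. The 5 in the middle panel stay above 12 in every list.

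A predicted G4 lay within 500 bp of the centre of 3505 isolated origins (63.9%, 62.6 to 65.2), against 66.8% of the other kept origins and 18.8% of all 1001-bp windows of the genome. The difference was -2.88 points (-4.21 to -1.57). Among single-copy origins the order reversed in this window, with 3254 of 4360 isolated origins (74.6%) and 68.6% of the other kept origins G4-positive, a difference of 6.08 points (4.72 to 7.40). It did not reverse within 250 bp of the centre, where 33.4% of the isolated and 37.9% of the other single-copy origins had a G4, a difference of -4.55 points (-5.99 to -3.09). At the lower G4Hunter threshold of 1.5 within 500 bp the shares were 88.3% and 87.6%, a difference of 0.746 points (-0.272 to 1.70). Multi-copy isolated origins were G4-positive in 22.3%. Leaving out family A alone gave 73.7% against 68.1%, a difference of 5.54 points (4.22 to 6.83).

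Within the single-copy origins and 500 bp, the difference lay in those with peaks in only 2 control lists, 70.9% of the isolated against 60.3% of the other kept origins. Of those in all 3 control lists, 78.5% and 77.8% had a G4, a difference of 0.739 points (-1.11 to 2.49). The share of single-copy origins with a G4 within 500 bp rose with distance, from 65.9% with a neighbour within 2 kb to 69.4%, 70.9%, 73.1% and 74.9% at 50 to 100 kb, and was 73.9% beyond 100 kb. The share with a G4 within 250 bp went the other way, with 40.1%, 37.1%, 35.6%, 35.9%, 34.3% and 31.1% over the same steps. The sequence around single-copy isolated origins was poorer in GC than around the other single-copy origins, with a median of 44.7% against 50.2% within 500 bp.

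The G4 lay on the usual side of these origins. Read along its G-rich strand, the G4 covered at most 13.8% of single-copy isolated origins, at a position 280 bp 5′ of the region centre, and 10.6% of the other single-copy origins at 276 bp 5′. From 100 to 400 bp 5′ of the centre the mean coverage was 9.56% and over the same stretch 3′ of it 0.832%, against 8.10% and 1.66% for the others. The pair of G4 printed above lay on the rarer side, 3′ of the centre.

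**Figure D4:**
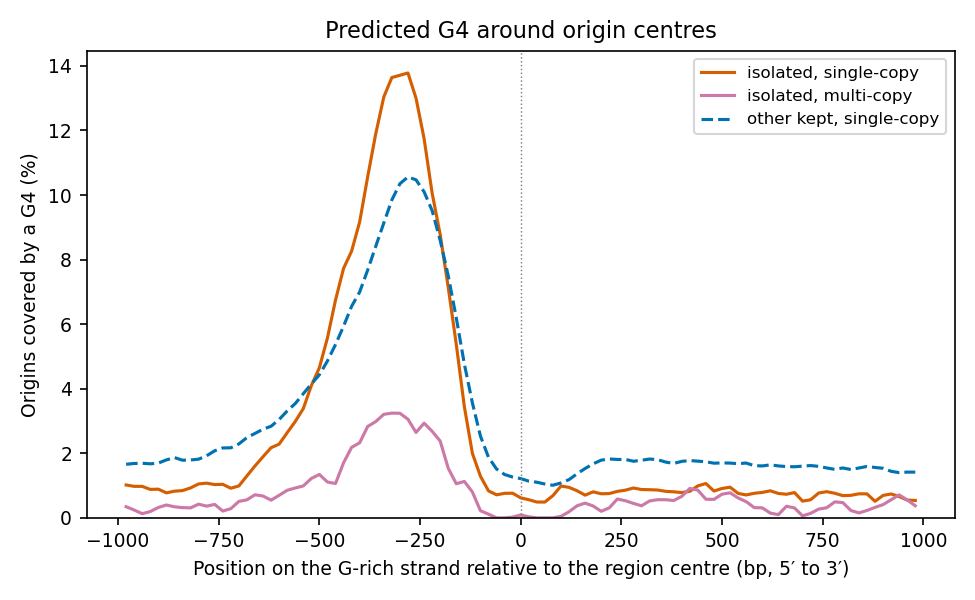
Percentage of origins covered by a predicted G4 at each position from 1000 bp 5′ to 1000 bp 3′ of the region centre, read along the G-rich strand and smoothed over 25 bp, for single-copy isolated, multi-copy isolated and other single-copy kept origins. The single-copy isolated origins peak at 13.8% at 280 bp 5′ of the centre, the other single-copy origins at 10.6% and the multi-copy isolated origins at 3.26%.

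Single-copy isolated origins with and without a G4 differed in the PhenDC3 lists. Those with a G4 were in both lists in 52.4% of cases and those without in 36.9%, a difference of 15.5 points (12.1 to 18.8). In replicate 1 the shares were 60.0% and 45.8%, in replicate 2 79.8% and 59.8%, and 12.7% and 31.3% had no PhenDC3 peak. Conversely, 80.7% of the single-copy isolated origins in both PhenDC3 lists had a G4, against 54.3% of those in neither. Origins with a G4 also had more control support, 51.6% of them being in all 3 control lists against 41.6% of those without.

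Among single-copy origins with a G4, 52.4% of the isolated and 53.6% of the others were in both PhenDC3 lists, a difference of -1.19 points (-2.97 to 0.581). The 2 replicates went opposite ways here, with a difference of -6.65 points (-8.40 to -4.92) in replicate 1 and 10.1 points (8.66 to 11.6) in replicate 2. Without a G4 the shares were 36.9% and 25.8%, a difference of 11.1 points (8.20 to 14.0), and the isolated origins were higher in each replicate, by 5.35 points (2.36 to 8.38) in replicate 1 and 21.4 points (18.4 to 24.3) in replicate 2. Over all single-copy origins the difference for both lists was 3.60 points (2.07 to 5.13). In introns, 46.4% of the isolated and 46.4% of the other single-copy origins were in both lists, and the interval of the difference ran from -2.44 to 2.43 points.

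On X, the 183 single-copy isolated origins were less often in both PhenDC3 lists (32.8%) than those on autosomes (49.1%), a difference of -16.4 points (-22.9 to -9.10), with G4 shares of 74.3% and 74.7%. The lower share was seen in replicate 1 (41.5% against 57.0%) and in replicate 2 (65.0% against 75.1%). The other single-copy origins of X were lower still, at 26.4% in both lists, and the difference from the isolated ones was 6.37 points (-1.02 to 14.2).

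The flanks of the isolated origins, up to 50 kb on each side, covered 519.7 Mb, or 19.6% of the sequenced genome. By the rule they hold no other kept control origin, but 69.6% of the isolated origins had a region of 1 control list there. Control replicates 1, 2 and 3 had a further peak in the flanks of 51.3%, 21.7% and 31.4% of them. PhenDC3 replicate 1 had one in 72.8% (mean 2.09 peaks, SD 2.25 over the 5485 origins) and replicate 2 in 74.0% (mean 1.58, SD 1.47). The rule left out control peaks but not PhenDC3 peaks, so the higher PhenDC3 counts follow in part from the choice and were not tested.

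A region shared by both PhenDC3 lists lay in the flanks of 2582 isolated origins (47.1%). There were 3851 such regions, 6.11% of the 63038 in the genome, and 81.5% of them were G4-positive, against 80.1% of those elsewhere. No control list held a peak in 67.0% of them, against 28.5% elsewhere, a share that the rule raises by its own choice. The same rule applied to the PhenDC3 pair gave the mirror picture. It found 5772 isolated PhenDC3 regions (9.16% of the 63038), and 2902 of these (50.3%) had a kept control origin within 50 kb. Pairs of control lists gave 11.4%, 13.9% and 14.8% isolated regions.

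Of the 2748 isolated origins with a peak in both PhenDC3 lists, 1320 (48.0%) overlapped a region that was isolated in the PhenDC3 pair too, and those were 22.9% of the isolated PhenDC3 regions. The rule asked for a peak in 2 of 3 lists in the controls and in both lists with PhenDC3, and the same overlap between pairs of control lists was not computed, so these shares are no measure of a difference between the conditions.

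**Figure D5:**
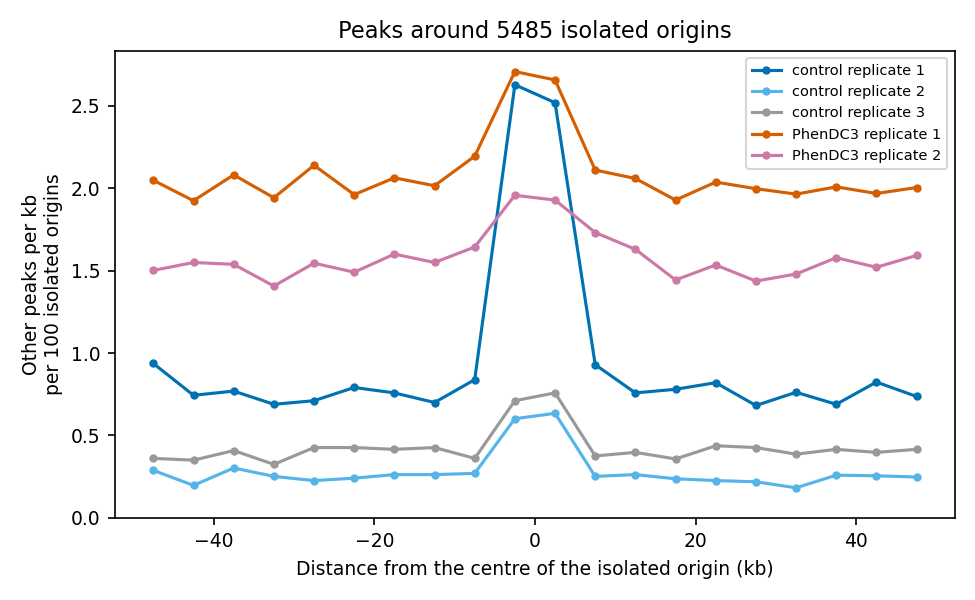
Other peaks per kb and per 100 isolated origins in bins of 5 kb from 50 kb before to 50 kb after the centre of the 5485 isolated origins, for the 3 control and 2 PhenDC3 lists. The PhenDC3 lists run above all 3 control lists, whose shared peaks the rule kept out, except in the bins next to the isolated origin, where control replicate 1 (2.63 and 2.52) lies above PhenDC3 replicate 2 (1.958 and 1.929).

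Genes that held isolated origins tended to be long. A long gene has more room for origins of any kind, so the difference in length below was not tested. Of the annotated genes, 1801 held at least 1, and the 1268 protein-coding ones among them had a median length of 162.2 kb, against 26.6 kb for the 11181 protein-coding genes with kept origins and no isolated one. The 295 protein-coding genes with 2 or more had a median length of 490.9 kb. Dlg2, a scaffold of the postsynaptic density, held the most, 14 of its 22 kept origins over 1973 kb (chr7:90476188-92449246). Cntnap2, a neurexin-like adhesion protein, held 12 of 20, Lsamp, an adhesion molecule of limbic neurons, 9 of 18, and Dmd, which encodes the muscle protein dystrophin, 9 of 11. The adhesion and membrane genes Nkain2 (8 of 15), Csmd1 (7 of 18) and Pcdh15 (7 of 13) and the mitochondrial enzyme gene Sugct (7 of 14) followed. The antigen receptor loci Igk and Tcra, which are large arrays of gene segments, held 8 of 36 and 8 of 14.

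A list of 33 long genes of fragile sites and neuronal adhesion held 471 kept origins, of which 150 (31.8%, 27.8 to 36.2) were isolated, against 5.06% over all annotated genes. The list had 9.95 kept origins per Mb and all annotated genes 33.9. Its 150 isolated origins lay in 47.3 Mb of summed gene length, and all annotated genes held 2265 in 1319.6 Mb. The higher share thus goes with few kept origins per Mb. Among the 150, 75 were in both PhenDC3 lists, beside 50.1% of all isolated origins, and 28 were multi-copy. The numbers in single genes were small and differences between genes were not tested. In Dlg2, 4 of the 14 isolated origins were in both PhenDC3 lists and 3 in neither, while in Csmd1 6 of 7 and in Nrxn3, a presynaptic adhesion gene, 5 of 7 were in both and none was in neither. Sox5 and Cntnap5a held no isolated origin, with 23 and 4 kept origins. Wwox, a tumour suppressor gene in a fragile site, had 36 kept origins over 913.1 kb, and 1 of them was isolated.

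The cadherins and protocadherins had 26 isolated of 197 kept origins (13.2%, 9.17 to 18.6, against 5.06% over all annotated genes), of which 14 were in both PhenDC3 lists. The vomeronasal receptors, pheromone receptors in large arrays, had 4 of 21 (7.67 to 40%). The 1109 olfactory receptor genes held 11 kept origins in their short gene bodies and no isolated one. The Hox clusters, which pattern the body axis and are dense in origins, held 59 kept origins (196.4 per Mb) and none was isolated. No annotated symbol began with Hist, so the histone genes were not counted.

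RNA-seq totals were 22232014 to 29486502 counts per sample. ES cell markers summed to 5310 to 5885 CPM (counts scaled to the total of the library) in control and 5590 to 5654 in PhenDC3 samples, with 2 of the 8 markers higher and 3 lower with PhenDC3. All 4 primitive endoderm markers rose, from 16.3 to 27.7 CPM summed in the controls to 40.6 to 52.3. The sums of 3 trophectoderm markers (5.84 to 6.62 and then 8.78 to 10.9 CPM, 1 higher), 3 neural markers (7.13 to 11.9 and then 4.89 to 6.35 CPM, 1 lower) and 4 fibroblast markers (5.71 to 6.81 and then 3.18 to 5.70 CPM, 1 lower) did not overlap either, while those of 2 mesoderm markers did. The part of these markers in the values below was not tested. In these bulk samples, fewer cells of a type and less RNA per cell cannot be told apart. Nothing in the labels says that the samples are separate cultures, so the p-values measure the spread between these samples only.

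As in the whole count table, many genes with an isolated origin had too few counts to test. The count table held 1298 of them, and 781 (60.2%) had enough counts to be tested. The share was 58.0% over all genes of the table and 77.9% for genes with other kept origins only. With PhenDC3, 180 of the 781 were higher (23.0%, 20.2 to 26.1) and 110 lower (14.1%, 11.8 to 16.7) by edgeR's quasi-likelihood test at an adjusted p of at most 0.05, beside 18% higher and 18.7% lower over all genes tested. Together 290 were called, where 36.8% of all genes tested were. The median log2 fold change was 0.18, against 0.01 over all genes. Length moved with this. Among genes of 200 kb or more, 28.4% with an isolated origin and 34.6% with other kept origins only were higher, and 12.8% and 12.1% lower. Below 50 kb, 11.8% and 16.0% were higher and 18.1% and 21.5% lower. Within both length classes the share of higher genes was thus not greater with an isolated origin than without, and the intervals overlapped.

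Among called genes with an isolated origin, a mean of at least 1 CPM and no overlap between the conditions (156 higher and 93 lower), the 10 with the largest rises and falls were taken. The share of all tested genes that pass the same filter was not computed, so these 2 counts only give the pool. Alcam, a cell adhesion molecule, had 0.543, 0.73 and 0.692 CPM in the controls and 5.51, 9.20 and 6.17 with PhenDC3 (log2 fold change 3.41, SE 0.29, edgeR adjusted p = 9.49e-05). Ddr2, a collagen receptor kinase, went from 2.82, 1.5 and 2.2 CPM to 22.1, 15.1 and 15.7 (log2 fold change 3.0, SE 0.26, edgeR adjusted p = 9.95e-05). Slit2, the secreted ligand of Robo receptors in axon guidance, went from 4.20, 2.46 and 5.53 CPM to 26.8, 26.6 and 28.2 (log2 fold change 2.74, SE 0.25, edgeR adjusted p = 0.00013). In all 3 genes every PhenDC3 sample lay well above every control. Srgap3, a GTPase-activating protein of the Slit-Robo pathway, rose by 2.43 on the log2 scale, Grid1, an orphan glutamate receptor subunit, by 2.95, Adcy2, an adenylate cyclase, by 2.66, Adarb2, of the RNA-editing deaminase family, by 2.55, and Dner, a Notch-related neuronal receptor, by 2.28. Apba1, an adaptor of the amyloid precursor protein, and Spats2l rose by 3.19 and 2.93.

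The genes with the largest falls were of several kinds. Enpp2, which encodes autotaxin and makes lysophosphatidic acid, had 4.96, 4.24 and 6.27 CPM in the controls and 0.416, 0.126 and 0.545 with PhenDC3 (log2 fold change -3.78, SE 0.39, edgeR adjusted p = 0.000211). Zmat4, a zinc finger gene that holds the origin 50018 bp from its neighbour described above, had 23.3, 25.4 and 19.6 CPM and then 2.88, 1.55 and 3.12 (-3.17, SE 0.25, edgeR adjusted p = 7.93e-05). Lars2, the mitochondrial leucyl-tRNA synthetase, had 9205, 7603 and 10809 CPM and then 1087, 1268 and 3873 (-2.15, SE 0.45, edgeR adjusted p = 0.00751). The third PhenDC3 sample was the highest of its group for each of these 3 genes, and for Lars2 it stood well above the other two. Tgm3, a transglutaminase, fell by 3.37 on the log2 scale, Kcnj3, a potassium channel, by 2.81, Fam19a4, a secreted protein, by 2.76, Sulf1, which trims heparan sulfate, by 2.62, Enox1 by 2.58 and Atp10a, a phospholipid flippase, by 2.09.

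Of the 33 long genes, 31 were in the count table and 10 were tested. Of these 10, 1 was higher and 3 were lower, beside 18% higher and 18.7% lower over all genes tested. With so few genes tested, the shares were not compared further. The long genes that were not tested but were in the count table were near 0 in all samples. Dmd had 47.6, 40.9 and 49.0 CPM in the controls and 67.7, 55.1 and 70.5 with PhenDC3 (log2 fold change 0.49, SE 0.13, edgeR adjusted p = 0.0179), with no overlap. Cntnap2 had 3.80, 5.52 and 3.42 CPM and then 1.01, 1.09 and 0.762 (-2.15, SE 0.28, edgeR adjusted p = 0.000639), and all of its 12 isolated origins had a peak in at least 1 PhenDC3 list. Macrod2 and Auts2 fell by 0.66 and 0.674 on the log2 scale. Dlg2, with the most isolated origins, was at 0 with PhenDC3 in all 3 samples and had at most 0.0912 CPM in a control, below the level tested.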

How the data were processed

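The authors mapped SNS-seq reads to mm10 (GRCm38) with Bowtie2, called peaks per replicate with MACS2 (2.1.0) against 1 RNase-treated library of the condition and kept only peaks that SICER supported too. For each peak, the deposited lists hold its fold enrichment, a ratio, and its −log10 p, both as the authors' caller wrote them. For RNA-seq the authors counted reads on genes with HTSeq (0.6.1p1) after TopHat2 (2.1.1). The deposited counts are raw, and the strand setting is not given in the sources used here. A deposited table of the authors' own DESeq2 comparison and one of normalized values were not used.

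Peak lists were merged, and isolated origins taken, as stated with the results. Mitochondrial peaks were left out. G4 were predicted with G4Hunter (window 25, threshold 2), alternatively at 1.5 or with Quadparser, and an origin counted as G4-positive when one lay at most 500 bp from its centre. Genes and TSS come from RefSeq on GRCm38, and processed pseudogenes from GENCODE. Copy number was counted over all 31-base words of the assembly. Shares carry 95% Wilson intervals and their differences Newcombe intervals. Genes were tested with edgeR (4.0.16) by the quasi-likelihood test with RLE normalization and no replicate block, after filterByExpr, and p-values were adjusted by Benjamini-Hochberg over the 13972 genes tested, and the fit was tested on simulated data with known changes. A gene was a host when its annotated body held an origin. The peak lists give no reads, so the precision of a single peak is unknown, and RNA-seq totals stand with the results.

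Named regions are the 3 on either side of the 50 kb limit, the 5 farthest from a neighbour, the 5 with the highest lowest fold enrichment in all 5 lists and the 5 highest in the controls without a PhenDC3 peak. Sequences are from the farthest regions and from those in all 5 lists, up to 2 each with and without a G4, with 1 unit of family A added. Named genes are the 10 largest rises and falls among called host genes with a mean of at least 1 CPM and no overlap between conditions, the 10 that hold the most isolated origins, and the listed gene groups. The isolated origins, gene lists and tests were chosen with earlier results of these data known. Copy number, family A and the look at pseudogenes were added after the data had been seen. The RNase-treated libraries were not analysed here. For 1 gene of the long-gene list, values of its own are not reported here.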

Additional observations from a re-analysis of the deposited data

How the results depend on the processing

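The number of isolated origins (5485) was within 1.5 times of that under all alternatives but 3, with 12790 beyond 25 kb, 1807 beyond 100 kb and 1666 when all control peaks counted as neighbours. Leaving out 1 control replicate gave 6098 to 6603. The difference in the share with both PhenDC3 peaks (4.94 points) became 1.78 with the stronger peaks of each control list, 2.82 after weighting the other origins by control support and strength and 7.43 after weighting by GC content. It reversed to -1.29 with equally many peaks from each of the 5 lists and to -1.3 with origins in all 3 controls. It also reversed to -4.15 when a PhenDC3 peak within 1 kb of the centre sufficed, a setting that favours origins with close neighbours. Leaving out control replicates gave 0.343 (without replicate 2), 0.347 (without replicate 1) and 5.42, and leaving out PhenDC3 replicates -0.919 (without replicate 2) and 15.1 (without replicate 1). The difference in G4-positive share (-2.88 points) became -7.57, -4.26 and -8.52 under the first 3 choices of control peaks named above (stronger, equally many, all 3 controls), -10.0 beyond 100 kb, -7.5 with all control peaks as neighbours, -8.46 with a 250 bp window and -0.273 on autosomes. It reversed to 0.0945 beyond 25 kb, 6.08 for single-copy origins and 5.54 outside family A. Leaving out control replicates gave -6.71 to -4.11. The difference in median strength percentile (-4.23) reversed to 6.32 when ranked by fold enrichment, and single PhenDC3 replicates gave -7.68 and -0.781. Called host genes (290) were 870 beyond 25 kb and 60 beyond 100 kb, since these limits hold more or fewer origins.

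DESeq2 called 297 host genes, TMM normalization gave 291, no filter 300 and single-copy origins 284, and leaving out 1 RNA-seq sample gave 194 to 324, lowest without PhenDC3 replicate 1. With a replicate block, 426 of the 781 tested host genes and 7489 of all 13972 genes tested were called. The labels do not say whether samples of the same number are pairs, and the main fit did not pair them. Their deviations from the group means correlated with 0.0983, 0.627 and 0.486. All 3 controls correlated best with the PhenDC3 sample of their own number, so the main fit may leave out a pairing. Of the 200 refits of single named genes, 199 kept direction and call, and Lars2 without a filter had an edgeR adjusted p of 0.0534. Copies of repeats, the 2 PhenDC3 replicates that disagreed and lists of unequal length without read counts limit what can be said.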

Other observations

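Isolated origins in processed pseudogenes, which are spliced gene copies inserted back into the genome, went the other way from the rest in the 2 PhenDC3 lists. Of 70 such origins, 57 (81.4%, 95% Wilson interval 70.8 to 88.8) had a peak in PhenDC3 replicate 1 and 26 (37.1%, 26.8 to 48.9) in replicate 2, while the other isolated origins had 57.5% and 75.7%. The 463 other kept origins in processed pseudogenes had 69.3% and 42.8%. The contrast was present in the 34 multi-copy origins (30 against 6) and in the 36 single-copy ones (27 against 20). It was looked for after the smaller repeat families had been seen.

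In those families the 2 PhenDC3 lists also differed. Family C, with 11 isolated origins on 9 chromosomes, shared 23.5% of its 31-base words with transcripts of Gapdh, a glycolytic enzyme gene, and all 11 were in PhenDC3 replicate 1 and none in replicate 2. Family F, with 6, shared 29.7% with Rps2, a ribosomal protein gene, and 6 were in replicate 1 and 2 in replicate 2. Family B, with 12 isolated origins of which 11 had a G4, had 10 in both lists. Family D, with 11, was in 2 controls each and in no PhenDC3 list. Family E, with 7 isolated origins that all lay on 1 chromosome and all had a G4, had 4 in both.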
